A study of Mus musculus with 6 samples.

Results

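The T-box genes studied here are Tbx1, Tbx2, Tbx3, Tbx4, Tbx5, Tbx6, Tbx15, Tbx18, Tbx20 and Tbx21, a family of 10 transcription factor genes chosen by symbol in a deposited table of captured methylated DNA from mouse heart ventricle. Every region of the table that carries one of these symbols was taken, and repeated lines of a region were counted once. This gave 25 regions of 213957 in the table, spread over 9 of the 10 genes, and no region carried the symbol Tbx20. The tissue came from male C57BL/6 mice at postnatal day 14 (P14, 3 libraries) and postnatal day 1 (P1, 3 libraries), and the labels name no treatment or genetic change in either group. The comparison follows DNA methylation over the interval in which heart muscle cells stop dividing and mature. The sample labels give left ventricle as the tissue, whereas the protocol describes ventricles freed of atria with the septum kept. The labels give 3 replicates per age without saying whether each came from 1 animal or from a pool, so p-values measure the spread between these libraries.

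Genomic DNA was sonicated, fragments with methylated CpG sites were captured on a methyl-CpG binding domain, and the captured fragments were sequenced. The measurement is therefore a density of captured reads, set both by the number of methylated CpGs in a fragment and by the efficiency of capture in a library. It is not a methylation level. Ventricle is a mixture of muscle, stromal, vascular and blood cells, and in such bulk tissue a change in the mix of cells and a change of methylation within cells cannot be told apart. Captured DNA carries no expression, so the labelled tissue could not be checked by its markers. Reads on the Y chromosome were present in all 6 libraries, which are all labelled male.

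T-box proteins share a DNA-binding domain, the T-box, and act as activators or repressors of transcription. In the heart, Tbx5 and Tbx20 activate the muscle programme of the chambers, while Tbx2 and Tbx3 repress chamber genes in the atrioventricular canal and the conduction system, often by competing for the same sites. Tbx1 acts in progenitors of the outflow tract and Tbx18 in the epicardium and the sinus node. Tbx4 is known from hindlimb and lung, Tbx6 from the paraxial mesoderm, Tbx15 from skeletal muscle and skin, and Tbx21 from T lymphocytes. Tbx2 lies beside Tbx4, and Tbx3 beside Tbx5, pairs that descend from duplicated ancestral genes. Methylation at CpG-rich starts of genes generally goes with silence, while methylation inside a gene body has no such fixed relation to its transcription.

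Where a gene starts could be compared with the captured regions for 6 members, through promoter windows that run from 250 bases before to 50 bases after a transcript start (RefSeq, build GRCm38.p6). These 6 were Tbx1, with 2 starts, Tbx4, Tbx6, Tbx18, Tbx20 and Tbx21. Of the 7 windows, 1 lay in a captured peak, at the internal start of Tbx1. It is printed with the upstream start of the same gene and with the start of Tbx20, because these show a CpG-rich start inside a peak beside CpG-rich starts outside one. The Tbx1 window inside a peak is chr16:18588850-18589149, the upstream Tbx1 window is chr16:18590622-18590921 and the Tbx20 window is chr9:24774254-24774553, all on the minus strand. Each is written 5′ to 3′ on that strand, with CG dinucleotides in capitals.
Tbx1 internal start: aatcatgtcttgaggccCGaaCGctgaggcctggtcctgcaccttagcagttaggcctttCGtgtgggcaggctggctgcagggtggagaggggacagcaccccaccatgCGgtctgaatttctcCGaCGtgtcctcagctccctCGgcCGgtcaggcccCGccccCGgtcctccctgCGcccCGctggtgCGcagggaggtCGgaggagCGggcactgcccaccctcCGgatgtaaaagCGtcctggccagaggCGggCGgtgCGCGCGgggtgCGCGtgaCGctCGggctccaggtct
Tbx1 upstream start: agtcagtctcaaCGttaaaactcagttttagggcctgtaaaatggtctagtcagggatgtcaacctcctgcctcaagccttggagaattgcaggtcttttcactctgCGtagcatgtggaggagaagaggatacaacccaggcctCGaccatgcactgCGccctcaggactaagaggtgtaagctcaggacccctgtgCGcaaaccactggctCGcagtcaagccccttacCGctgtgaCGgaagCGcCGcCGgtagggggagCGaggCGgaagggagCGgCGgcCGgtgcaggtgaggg
Tbx20 start: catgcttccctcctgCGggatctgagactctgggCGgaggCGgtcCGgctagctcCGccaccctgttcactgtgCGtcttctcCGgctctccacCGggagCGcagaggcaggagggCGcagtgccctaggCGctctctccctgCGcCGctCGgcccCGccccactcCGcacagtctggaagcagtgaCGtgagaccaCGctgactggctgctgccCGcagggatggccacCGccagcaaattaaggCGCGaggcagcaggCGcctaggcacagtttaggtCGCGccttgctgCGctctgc
The internal Tbx1 window held 26 CG dinucleotides, with a GC content of 69.0% and a ratio of observed to expected CG of 0.729. The upstream Tbx1 window held 16 (ratio 0.633), and the Tbx20 window 26 (ratio 0.745). Over 32851 promoter windows of the same length the median was 7 CG dinucleotides and a ratio of 0.384. The other 4 windows held 21 (Tbx21), 15 (Tbx18), 8 (Tbx4) and 7 (Tbx6), and all 4 lay in stretches between peaks. The Tbx4 window is at an internal start, from chr11:85896515, whereas the RefSeq span of the gene begins at 85886367. No window was available at that upstream edge, where a captured peak lies 59 bp outside the span. The T-box core site was searched as GGTGTGA and as its reverse complement TCACACC. Neither occurred in the 7 windows, and 3.98% of all windows held at least 1, so such a window without a match is the usual case.

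Libraries differed in how strongly methylated DNA had been enriched, and this bears on every value that follows. Total reads over distinct regions were 16284216 to 21512072 at P14 and 17532547 to 18505983 at P1. The table holds 101254 peaks, the short regions dense in captured reads, and 112667 long stretches between them, a division inferred here from borders, names and read density. Peaks took 31.3%, 18.4% and 16.98% of reads in P14 replicates 1 to 3, and 11.6%, 13.4% and 12.6% in P1 replicates 1 to 3. P14 replicate 1 stood apart, and the groups did not overlap. P1 replicate 1 had no read in 2392 peaks, against 2 to 125 in the P14 libraries and 30 and 37 in the other P1 libraries. Peaks were therefore compared within the reads that fell in peaks, as reads per 1000000 of those reads (CPM) after TMM scaling, and a peak is called gained or lost where edgeR's quasi-likelihood test gave an adjusted p under 0.05 and the P14 value was the higher or the lower one. The part that capture strength plays in the results was not tested beyond the alternatives given with them.

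All 25 T-box regions were peaks and all passed the filter on low counts, which used library sizes over all regions. With library sizes from the reads in peaks, 23 passed, without Tbx5 peak 2 and Tbx21 peak 1. They were 553 to 2403 bp wide, with a median of 1011 bp, against 869 bp over all tested peaks. Their median density, averaged over both ages, was 6.94 CPM per kb, against 8.09 over all tested peaks, and 10 of the 25 lay above that median. Single libraries held between 2 and 194 reads in a T-box peak. By position, 22 peaks lay inside the RefSeq span of their gene, 1 crossed the edge of Tbx21, and 2 lay outside, 59 bp from Tbx4 and 1084 bp from Tbx3. The table gives 3 of them a further gene name, 4930588K23Rik at Tbx1, 2610027K06Rik at Tbx2 and Gm2301 at Tbx3, so those reads cannot be assigned to the T-box gene alone. Peaks are numbered here within each gene from its lower coordinate.

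The T-box peaks that passed the test sat in the repressor genes Tbx2 and Tbx3, where the middle peak of each gene was gained at P14. Of the 25 T-box peaks, 2 were gained and 0 were lost, beside 0.105% of all 96772 tested peaks gained and 2.42% lost (2.52% called in either direction). A further 3 T-box peaks had an unadjusted p under 0.05, which makes 5 of 25, beside 7.6% of all peaks. Higher values at P14 were found in 21 of the 25, beside 49.4% of all peaks, and a log2 change above 1 in 3 of 25, beside 1.53%. The count of higher values was 18 to 22 of the 25 in fits that leave out 1 library. The median log2 change was 0.21 over the T-box peaks and -0.01 over all peaks. In 9 of 25 every P14 library lay above every P1 library, beside 4.83% of all peaks, and in 0 of 25 every P14 library lay below, beside 7.05%. The other 16 overlapped between the ages. All 25 carry a gene name, as do 68634 regions of the table, while the percentages are over named and unnamed peaks together.

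**Figure D1:**
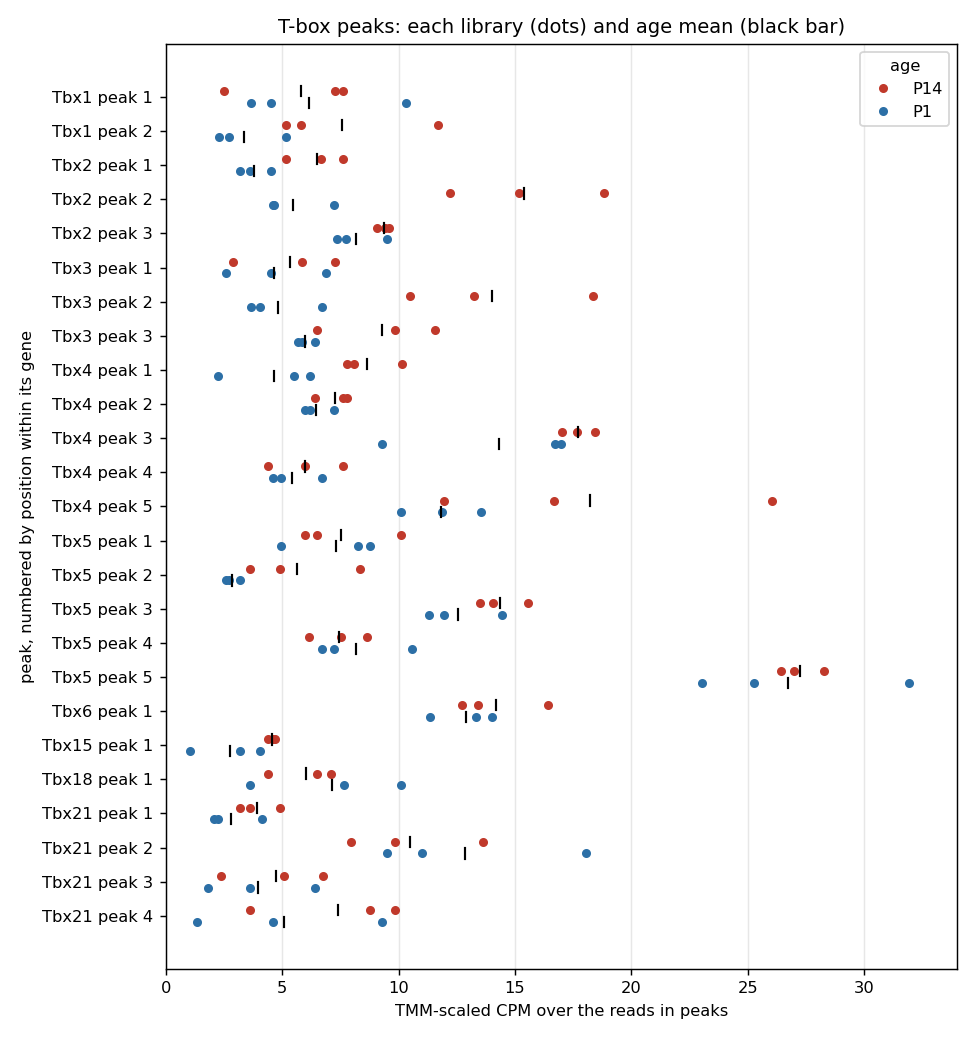
CPM after TMM scaling, relative to reads in peaks (horizontal axis), for each of the 25 T-box peaks (rows), with a dot per library, P14 in red above P1 in blue, and a black bar at the mean of each age. The middle peaks of Tbx2 and Tbx3 separate the ages most clearly, with P14 libraries from 10.5 to 18.8 CPM and P1 libraries from 3.67 to 7.23 CPM.

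Tbx2 encodes a repressor that keeps chamber genes off in the atrioventricular canal. Its middle peak (ENSMUSG00000000093, chr11:85836381-85838783, inside the gene, 2403 bp) held 109, 47 and 52 reads in P14 replicates 1 to 3, against 9, 16 and 10 reads in P1 replicates 1 to 3. Scaled, these were 15.2, 12.2 and 18.8 CPM at P14 and 4.64, 7.23 and 4.59 CPM at P1. All P14 libraries lay above all P1 libraries, and P14 replicate 1, the library of strongest enrichment, was not the highest of its age. The peak averaged 15.4 ± 3.33 CPM at P14 and 5.48 ± 1.51 CPM at P1 (SD, n = 3 each), a log2 change of 1.46 (SE 0.33, edgeR adjusted p = 0.0273). Without P14 replicate 1 the change was 1.49 with an adjusted p of 0.205. The call was also lost without P14 replicate 3 (0.0820), P1 replicate 1 (0.0621) or P1 replicate 3 (0.0896), and the log2 change stayed between 1.32 and 1.72 over the 6 fits that leave out 1 library.

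The peaks on either side of it within Tbx2 did not pass the threshold. Peak 1 (chr11:85834341-85835102), which also carries the name 2610027K06Rik, held 48, 20 and 21 reads at P14 against 7, 10 and 7 at P1. Scaled, it had 5.19 to 7.61 CPM at P14 and 3.21 to 4.52 CPM at P1, ranges that did not overlap, with a log2 change of 0.77 (SE 0.43, edgeR adjusted p = 0.891). Peak 3 (chr11:85839991-85841350) held 69, 35 and 26 reads at P14 against 15, 21 and 16 at P1. Its scaled values, 9.08 to 9.60 CPM at P14 and 7.34 to 9.49 CPM at P1, overlapped, and its log2 change was 0.19 (SE 0.31). Averaged over both ages, the middle peak was also the thinnest of the 25 in density, at 4.35 CPM per kb. All but 2.87% of tested peaks exceeded that value, and the peak was the widest of the 25. Its low P1 values enter both this average and the call.

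Tbx3 encodes a repressor that marks the sinus node and the conduction system. Its middle peak (ENSMUSG00000018604, chr5:119680062-119681185, inside the gene, 1124 bp) held 132, 51 and 29 reads in P14 replicates 1 to 3, against 13, 9 and 8 reads in P1 replicates 1 to 3. Scaled, these were 18.4, 13.2 and 10.5 CPM at P14 and 6.70, 4.07 and 3.67 CPM at P1. The groups did not overlap, and both libraries numbered 1 were the highest of their age. The peak averaged 14.0 ± 3.99 CPM at P14 and 4.81 ± 1.64 CPM at P1 (SD, n = 3 each), a log2 change of 1.59 (SE 0.35, edgeR adjusted p = 0.0275). Without P14 replicate 1 the change was 1.34 with an adjusted p of 0.252. The call was also lost without P14 replicate 2 (0.0533), P1 replicate 2 (0.0928) or P1 replicate 3 (0.0948), with log2 changes of 1.34 to 1.92 over the 6 fits. With library enrichment as a covariate its log2 change was 1.02, against 1.48 at the middle peak of Tbx2, and neither was called. By limma-voom the Tbx3 peak was not called (adjusted p = 0.0508), whereas the Tbx2 peak was (0.0349).

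The neighbouring peak 3 of Tbx3 (chr5:119682347-119683717) held 83, 38 and 18 reads at P14 against 11, 13 and 14 at P1. Scaled, it had 6.52 to 11.6 CPM at P14 and 5.67 to 6.43 CPM at P1, so the groups touched without overlapping, and its log2 change was 0.67 (SE 0.35, edgeR adjusted p = 0.799). Peak 1 (chr5:119668471-119669450), which lies outside the gene and also carries the name Gm2301, held 42, 28 and 8 reads at P14 against 5, 10 and 15 at P1. It overlapped between the ages, at 2.90 to 7.26 CPM at P14 and 2.58 to 6.89 CPM at P1, with a log2 change of 0.21 (SE 0.48).

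**Figure D2:**
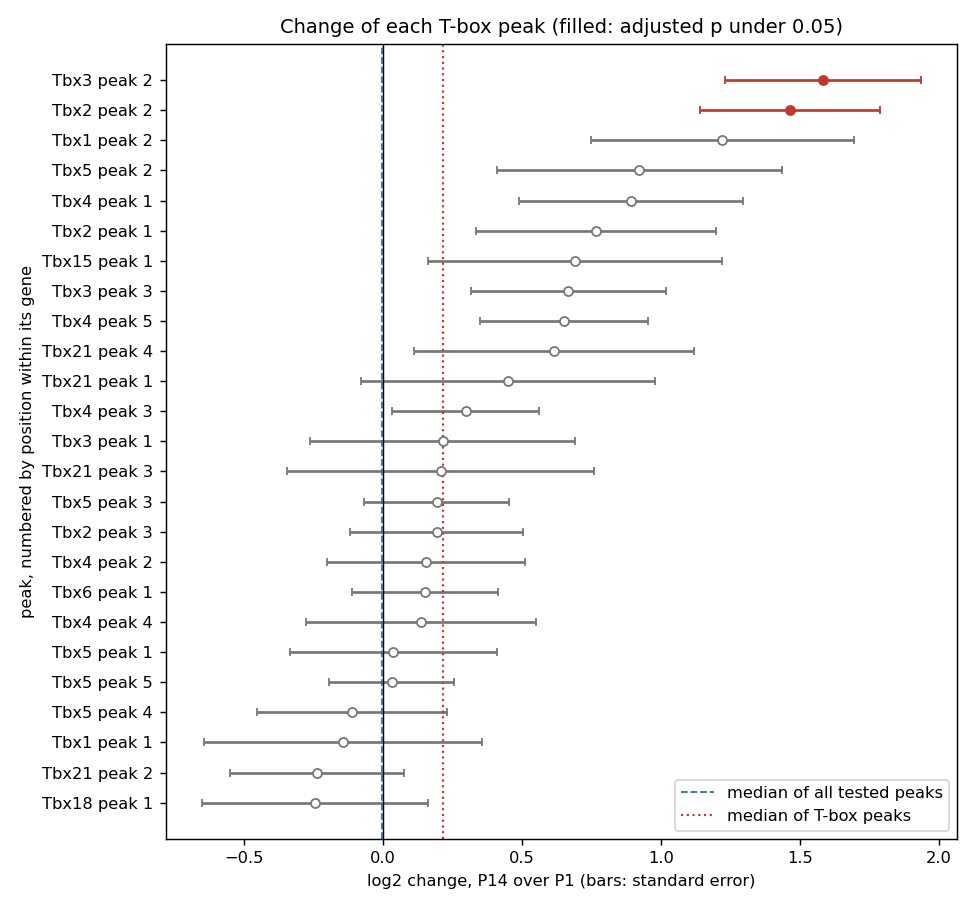
log2 change of each T-box peak, P14 over P1, with bars for the standard error and peaks in order of their change. Filled points mark the 2 peaks past the threshold, the blue dashed line the median of all tested peaks (-0.01) and the red dotted line the median of the 25 T-box peaks (0.21).

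Tbx1 is the T-box gene of the pharyngeal arches and the outflow tract. Its peak 2 (ENSMUSG00000009097, chr16:18588406-18589412), which contains the whole internal promoter window printed above and is also named for 4930588K23Rik, held 84, 20 and 16 reads at P14 against 10, 6 and 5 at P1. Scaled, these were 11.7, 5.19 and 5.80 CPM at P14 and 5.15, 2.71 and 2.30 CPM at P1. The groups were separated only narrowly, P14 replicate 1 was far above the others, and P1 replicate 1 was close to P14 replicate 2. The log2 change was 1.22 (SE 0.47) with an unadjusted p of 0.0181 from edgeR, which did not pass the adjustment (adjusted p = 0.322). Without P14 replicate 1 the log2 change was 0.72.

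Tbx5, an activator that works with Gata4 in chamber muscle, had the peak with the most reads in the family and no peak past the threshold. Its peak 5 (chr5:119882671-119884643) held 194, 109 and 73 reads at P14 against 62, 51 and 55 at P1. Scaled, these were 27.0, 28.3 and 26.4 CPM at P14 and 31.9, 23.0 and 25.2 CPM at P1. The P14 values lay within the P1 range, with a log2 change of 0.03 (SE 0.22). Peak 2 (chr5:119857918-119858581), much thinner, held 26, 19 and 23 reads at P14 against 5, 6 and 7 at P1. It had 3.62 to 8.33 CPM at P14 and 2.58 to 3.21 CPM at P1, a narrow separation, with a log2 change of 0.92 (SE 0.51, edgeR adjusted p = 0.875). This peak did not pass the low-count filter when library sizes came from the reads in peaks. The other 3 peaks of Tbx5 had log2 changes from -0.11 to 0.19.

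Tbx4, the neighbour of Tbx2 and a gene of hindlimb and lung, had higher mean values at P14 in all 5 of its peaks, none past the threshold. Peak 1 (chr11:85885113-85886308), 59 bp outside the gene on its upstream side, held 58, 30 and 28 reads at P14 against 12, 5 and 12 at P1. Its scaled values, 7.78 to 10.1 CPM at P14 and 2.26 to 6.18 CPM at P1, did not overlap, and the log2 change was 0.89 (SE 0.40, edgeR adjusted p = 0.568). Peak 5 (chr11:85913581-85915062) held 187, 46 and 46 reads at P14 against 23, 30 and 22 at P1. Its 26.0 CPM in P14 replicate 1 stood far above the 11.9 and 16.7 CPM of the other P14 libraries, which overlapped with 10.1 to 13.6 CPM at P1, and the log2 change was 0.65 (SE 0.30, edgeR adjusted p = 0.605). The remaining 3 peaks of Tbx4 had log2 changes from 0.14 to 0.30.

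No peak of the other members passed the threshold. Tbx6, which directs paraxial mesoderm, had 118, 49 and 37 reads at P14 against 22, 31 and 29 at P1 in its only peak (chr7:126782483-126783764), a log2 change of 0.15 (SE 0.26) with overlapping scaled values. Tbx15 had 33, 17 and 13 reads at P14 against 2, 9 and 7 at P1 in its only peak (chr3:99282258-99282810). Scaled, all P14 libraries of Tbx15 lay above all P1 libraries, with 4.41 to 4.71 CPM at P14 and 1.03 to 4.07 CPM at P1, and the log2 change was 0.69 (SE 0.53). Tbx18, an epicardial and sinus node gene, had 51, 17 and 18 reads at P14 against 7, 17 and 22 at P1 in its only peak (chr9:87705273-87706046). That was the lowest log2 change of the family, -0.25 (SE 0.41), and its scaled values overlapped.

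Tbx21 encodes T-bet, a factor of T helper and natural killer cells, and of its 4 peaks 3 had higher and 1 had lower values at P14, none past the threshold. Peak 2 (chr11:97103545-97104705) held 98, 38 and 22 reads at P14 against 35, 21 and 24 at P1, a log2 change of -0.24 (SE 0.31). Peak 4 (chr11:97112735-97113346) held 63, 38 and 10 reads at P14 against 18, 3 and 10 at P1, a log2 change of 0.62 (SE 0.50). Scaled values of both overlapped between the ages. The 9 T-box peaks not described one by one had log2 changes from -0.14 to 0.45, with 7 higher and 2 lower at P14, and the smallest of their unadjusted p-values from edgeR was 0.278.

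Tbx20, a regulator of chamber muscle and endocardium, was the member without a peak. Its whole span of 53492 bp lay in a single stretch between peaks (chr9:24708905-24778488). That stretch held 363, 471 and 372 reads at P14 and 506, 474 and 475 reads at P1. In reads per 1000000 of the library and per kb this was 0.24 to 0.34 at P14 and 0.38 to 0.39 at P1. The P14 libraries were all lower, and the stretches of the whole table also held a smaller share of reads at P14. The CpG-rich start printed above lies in this stretch, so its own reads were not counted apart and give no value for the promoter. For the other genes, peaks covered from 0.49% of the span of Tbx15 to 48.5% of the span of Tbx2. Over the span of Tbx5 the table has 7 peaks, of which 2 carry no gene name and were not counted among the members.

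Reads summed over the peaks of a gene gave the same pair of genes past the threshold. The sums contain the reads of the middle peaks called above, so they are not independent of those calls. In a fit over 17688 gene symbols, Tbx2 and Tbx3 were gained and no T-box gene was lost, so 2 of the 9 genes were called, beside 0.498% of all symbols gained, 2.35% lost and 2.84% called in either direction. Tbx2 had 39.0, 34.1 and 48.1 CPM at P14 against 19.7, 27.0 and 19.6 CPM at P1. All P14 libraries lay above all P1 libraries, with a log2 change of 0.86 (SE 0.23, edgeR adjusted p = 0.0481). Tbx3 had 44.4, 39.2 and 26.7 CPM at P14 against 18.4, 18.4 and 22.002 CPM at P1. The groups did not overlap here either, and the log2 change was 0.93 (SE 0.24, edgeR adjusted p = 0.0413). Both calls are close to the threshold. With any single library left out, the adjusted p was 0.0509 to 0.208 for Tbx2 and 0.0234 to 0.274 for Tbx3, which kept its call only without P14 replicate 3. With library enrichment as a covariate the summed log2 change was 0.90 for Tbx2 and 0.50 for Tbx3, and neither was called.

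Tbx4 had 79.6, 64.9 and 79.2 CPM at P14 against 49.5, 56.9 and 55.9 CPM at P1. The groups did not overlap, and the log2 change of 0.46 (SE 0.17) had an adjusted p of 0.16 from edgeR. Tbx5 had 73.6, 83.0 and 84.6 CPM at P14 against 79.4, 62.6 and 76.7 CPM at P1, which overlapped, with a log2 change of 0.14 (SE 0.16, edgeR adjusted p = 0.883). The summed log2 changes of the other genes were 0.71 for Tbx15, 0.53 for Tbx1, 0.17 for Tbx6, 0.15 for Tbx21 and -0.23 for Tbx18, with adjusted p from 0.588 to 0.956. Summed values of every P14 library lay above every P1 library in Tbx2, Tbx3, Tbx4 and Tbx15, beside 7.1% of all symbols.

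**Figure D3:**
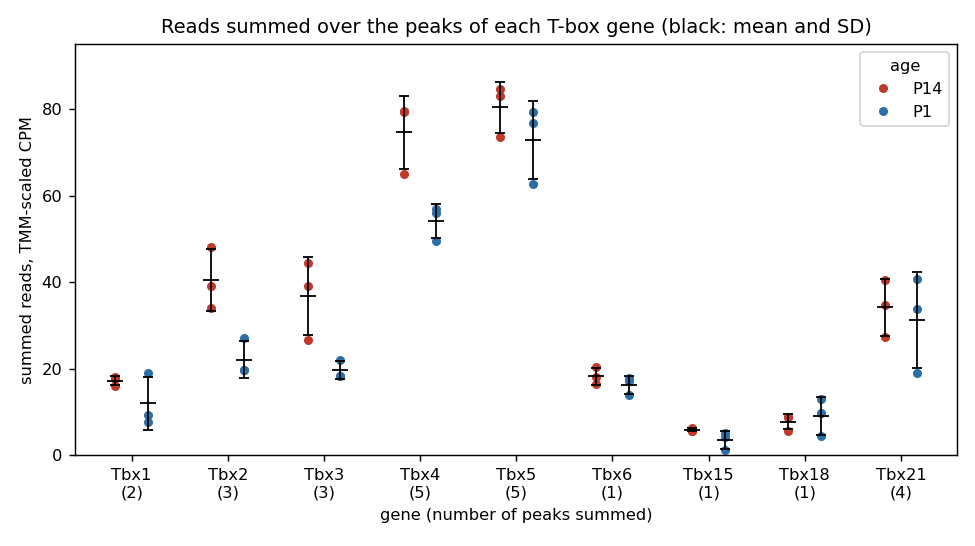
Reads summed over the peaks of each T-box gene, as TMM-scaled CPM of the fit over gene symbols (vertical axis), with a dot per library, P14 in red left of P1 in blue, and the mean and SD in black. The number under each gene is its number of peaks, and the P14 libraries of Tbx2 (34.1 to 48.1) lie above its P1 libraries (19.6 to 27.0).

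Per kb of peak, Tbx6, Tbx5 and Tbx4 had the highest density of captured reads at P14, at 11.1 ± 1.54, 10.2 ± 0.431 and 10.1 ± 1.22 CPM per kb (SD, n = 3). Tbx21 (8.85), Tbx15 (8.26), Tbx3 (8.25) and Tbx18 (7.76) followed, and Tbx2 (6.91 ± 1.04) and Tbx1 (6.72 ± 0.438) were lowest. Neighbours in this order lay within the spread of their libraries. At P1 the lowest densities were those of Tbx2 (3.86 ± 0.729 CPM per kb) and Tbx3 (4.45 ± 0.387), and the highest that of Tbx6 (10.0 ± 1.08). The 2 genes with the lowest density at P1 were those with a gained peak, and the same P1 values enter both statements.

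All T-box peaks together held 278, 248 and 236 reads per 1000000 in P14 replicates 1 to 3, and 181, 167 and 185 reads per 1000000 in P1 replicates 1 to 3, counted over the reads in peaks. Every P14 library was higher than every P1 library, with means of 254 ± 21.97 at P14 and 178 ± 9.17 at P1 (SD, n = 3 each). The difference of 76.2 on this scale had a two-sided exact permutation p of 0.1, the smallest that 3 libraries against 3 can give. Without P14 replicate 1 the difference was 64.0. These sums weight peaks by their reads, so Tbx5 and Tbx4, which hold the most reads, count most. All 25 peaks carry a gene name, and reads summed over all tested symbols also grew relative to reads in peaks. In P14 replicates 1 to 3 the symbol sums were 5895113, 2942636 and 2058825, against 6734637, 3682610 and 2765514 reads in peaks. In P1 replicates 1 to 3 they were 1582839, 1735647 and 1671759, against 2142121, 2346492 and 2276696. P14 replicate 3 was close to P1, and a peak with several names counts in each.

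Comparisons inside a library need no scaling between libraries. The density of a peak relative to the nearest stretch on each side, within 5000 bp of its border, was computed for this reason, after the data had been seen. Such a stretch need not touch the peak. Peaks 2 and 3 of Tbx3, for example, share the same flanking stretches of 14536 bp. This ratio still follows how strongly a library was enriched, and its median over all peaks was higher in every P14 library than in every P1 library. For the gained peak of Tbx2 this ratio was 2.30, 1.39 and 2.34 at P14 and 0.36, 0.92 and 0.47 at P1. At P1 the peak was thus no denser than its surroundings in any library. It was the sole T-box peak whose P1 mean was at or below 1, a property of 5.46% of all peaks. Tbx5 peak 2 came close, with a P1 mean of 1.005 (0.86, 0.96 and 1.19 in P1 replicates 1 to 3). Tbx1 peak 2 was at 0.91 and 0.74 in P1 replicates 2 and 3 but at 2.77 in P1 replicate 1. The flanking stretches of the Tbx2 peak cover only 2485 bp, so its ratio rests on few reads. Among all peaks the Tbx2 peak ranked at percentiles 10.56, 4.8 and 34.79 in P14 replicates 1 to 3. In P1 replicates 1 to 3 it ranked at 6.14, 6.08 and 1.0, so it was below the median peak in every library. For the gained peak of Tbx3 the ratio was 20.6, 6.22 and 4.52 at P14 and 1.87, 1.39 and 1.12 at P1, beside medians over all peaks of 4.70, 3.0022 and 2.76 at P14 and 1.72, 2.09 and 1.97 at P1. The Tbx3 peak was therefore above the median peak in every P14 library, and above it in P1 replicate 1 but below it in the other P1 libraries. Over the 25 T-box peaks, 14 had a ratio higher in every P14 library than in every P1 library, beside 44.6% of all peaks.

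Ratios between neighbouring genes were taken in the same way. Summed reads of Tbx2 over those of Tbx4, whose spans lie 44418 bp apart, gave 0.49, 0.53 and 0.61 at P14 and 0.40, 0.47 and 0.35 at P1. The ages did not overlap, though P14 replicate 1 and P1 replicate 2 were close, and the mean of the log2 ratios was 0.41 higher at P14. Summed reads of Tbx3 over those of Tbx5, 111789 bp apart, gave 0.60, 0.47 and 0.32 at P14 and 0.23, 0.29 and 0.29 at P1. The ages did not overlap here either, P14 replicate 3 was close to the P1 libraries, and the mean of the log2 ratios was 0.73 higher at P14. Tbx2 and Tbx3 stand on top of these ratios because they were called on the same summed reads, so the ratios restate that difference within each library and carry no test of their own.

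**Figure D4:**
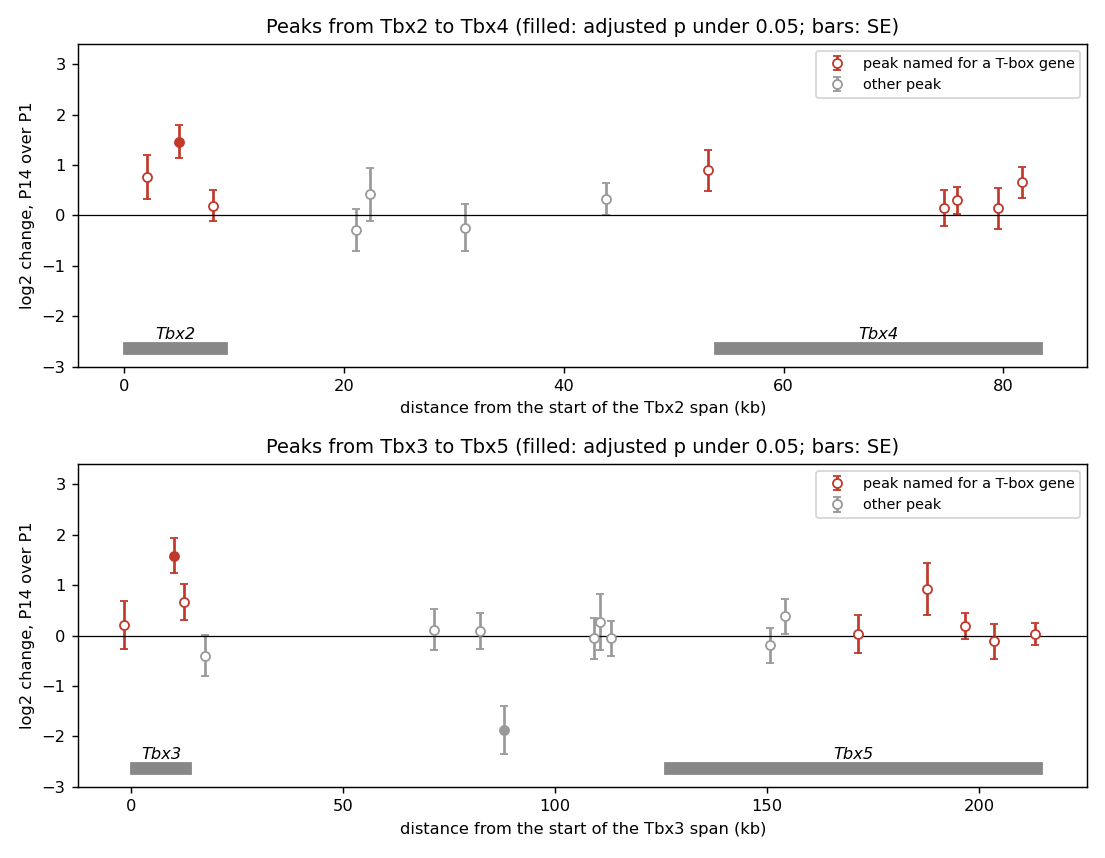
log2 change of each peak, P14 over P1, with its standard error (vertical axis) against the distance in kb from the start of Tbx2 (upper panel) and of Tbx3 (lower panel), with gene spans as grey bars. Peaks named for a T-box gene are red and other peaks grey, and filled points passed the threshold, which are the middle peaks of Tbx2 (1.46) and Tbx3 (1.59) and an unnamed peak between Tbx3 and Tbx5 (-1.87).

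Peaks between the paired genes were examined. Between Tbx2 and Tbx4 lay 4 other peaks, with log2 changes from -0.28 to 0.42 and none past the threshold. Around and between Tbx3 and Tbx5 lay 10 other peaks, of which 9 were tested, with a median log2 change of -0.06. Of these 1 was lost, a peak without a gene name (chr5:119758252-119758930) that was singled out after its values were seen. It held 12, 16 and 7 reads at P14 against 30, 14 and 18 at P1, or 1.67, 4.15 and 2.54 CPM at P14 and 15.5, 6.32 and 8.26 CPM at P1. All P14 libraries lay below all P1 libraries, with a log2 change of -1.87 (SE 0.47, edgeR adjusted p = 0.0396). The call held without P14 replicate 2 (0.0490) and was lost without any other single library (0.0532 to 0.296) or without a TMM factor (0.0708). Scaled to reads between peaks its log2 change was -0.74 (edgeR adjusted p = 0.244), over all regions -1.16 (0.214), without both libraries numbered 1 -1.05 (0.481) and with the enrichment covariate -0.79, and the replicate block gave 0.195. The other tested peaks there did not pass the test.

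Other genes of the T-box network were examined from 4 lists. Among further T-box family genes, 5 of 7 had peaks, and of their 12 tested peaks 0 were gained and 0 lost, with a median log2 change of -0.09. Among factors that act with T-box proteins in the heart, such as the GATA factors, Mef2c and Srf, 8 of 12 had peaks, and of 23 peaks 0 were gained and 0 lost (median 0.05). Among genes that T-box factors are known to regulate in chamber and conduction tissue, such as Nppa and Gja5, 12 of 15 had peaks, and of 77 peaks 0 were gained and 0 lost (median -0.03). Among signals upstream of T-box genes, 9 of 15 had peaks, and of 44 peaks 0 were gained and 2 were lost, 4.55% of them, beside 2.42% of all tested peaks, with a median of 0.10.

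The 2 lost peaks are those of Bmpr1a and Smad1, and with 44 peaks in the list they are too few to set the list apart from all peaks. The peak at Bmpr1a, which encodes a BMP receptor (chr14:34435614-34437154), held 7, 14 and 13 reads at P14 against 33, 31 and 26 at P1. It averaged 3.10 ± 1.92 CPM at P14 and 14.3 ± 2.55 CPM at P1 (SD, n = 3 each), a log2 change of -2.36 (SE 0.44, edgeR adjusted p = 0.0243). Without P14 replicate 1 the change was -1.76 and the adjusted p 0.205. The peak at Smad1, which encodes a transducer of BMP signals (chr8:79396394-79397153), held 22, 19 and 10 reads at P14 against 19, 29 and 24 at P1. Its reads overlapped before scaling, and its scaled values, 3.87 ± 0.959 CPM at P14 and 11.3 ± 1.67 CPM at P1, did not. The log2 change was -1.56 (SE 0.36, edgeR adjusted p = 0.0314), and the call was lost without P14 replicate 1 (0.244), P14 replicate 3 (0.0701), P1 replicate 2 (0.130), P1 replicate 3 (0.0782) or a TMM factor (0.0614). Scaled to reads between peaks, the log2 change was -1.31 (adjusted p = 0.0873) at Bmpr1a and -0.43 (0.478) at Smad1, and over all regions -1.68 (0.214) and -0.85 (0.215), all from edgeR. Both calls were also lost with a replicate block (0.160 each) and with library enrichment as a covariate, where the changes were -0.69 and -1.23.

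**Figure D5:**
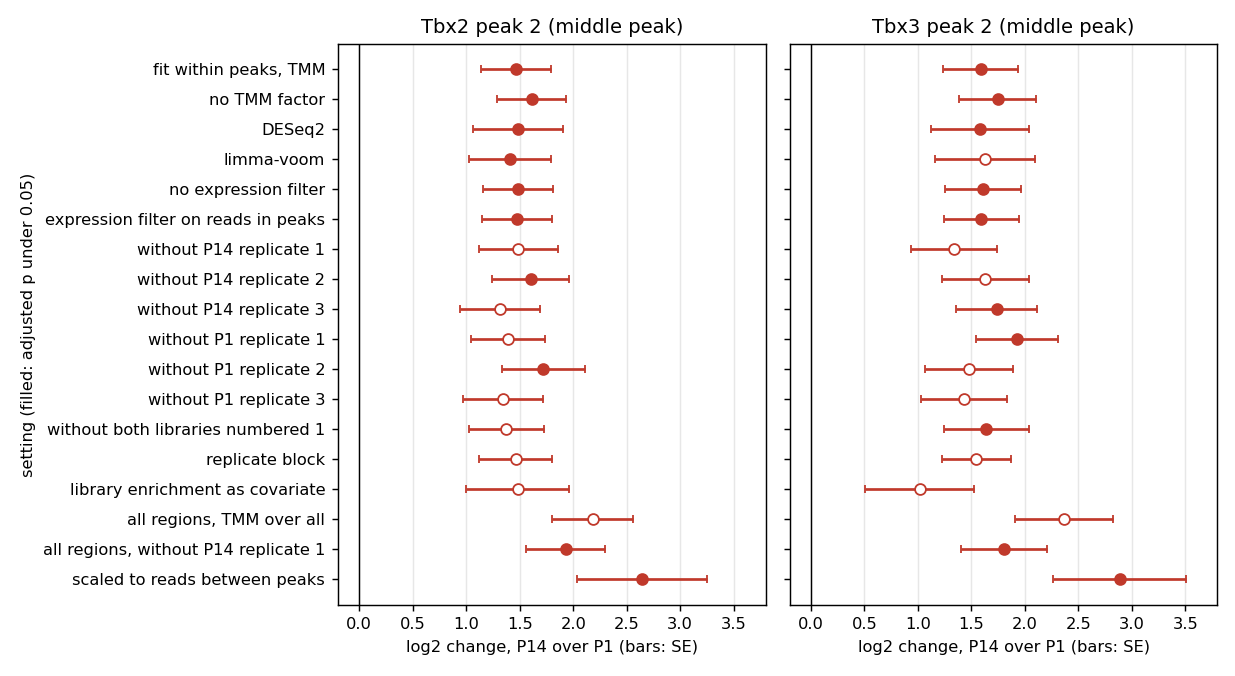
log2 change, P14 over P1, with its standard error for the middle peaks of Tbx2 (left) and Tbx3 (right) under each processing alternative (rows), with filled points where the adjusted p was under 0.05. All changes are positive, from 1.32 to 2.64 for Tbx2 and from 1.02 to 2.89 for Tbx3, while the call was lost in several rows.

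How peaks are scaled sets how many T-box peaks are called. Scaled to the reads between peaks, 9 T-box peaks were gained and 0 lost, beside 7.5% of all peaks gained and 0.0527% lost (7.55% in either direction), and the median log2 change was 1.42 over the T-box peaks and 1.18 over all peaks. Fitted together with the stretches, 0 of the 25 were called, beside 0.0% of all peaks, with unadjusted p under 0.05 in 17 of 25 T-box peaks and in 29644 of all 96772 peaks. DESeq2 within peaks called the same 2 peaks, beside 0.093% of all peaks gained and 2.7% lost (2.79% in either direction). The plot of alternatives shows that the direction at the middle peaks of Tbx2 and Tbx3 was the same in each fit, relative to whichever regions set the scale.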

How the data were processed

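Methylated DNA was captured by a methyl-CpG binding domain and sequenced, per the labels' protocols, in 3 P14 and 3 P1 libraries. The authors deposited raw read counts per region. Build GRCm38 (mm10) and the tools edgeR 3.2.4, bedtools, MACS and BWA are named in the submitters' processing notes, without their roles. How peaks were called, duplicates handled and libraries pooled is not given in the sources used here. Members, gene lists, fit and naming rule were chosen with earlier results of these data known.

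Of 221524 lines, 7567 repeat a region, which left 213957. Peaks were told from stretches by shared borders, gene names and read density, the last alone for 17551 regions; the density rule gave the same type for 94.6% of the others. The library filter of edgeR, with library sizes over all regions, kept 96772 peaks. Counts were fitted within peaks with TMM factors and edgeR 4.0.16, quasi-likelihood F test (limma 3.58.1, R 4.3.3), with age as the only term, Benjamini-Hochberg adjustment over all tested peaks or symbols and a threshold of 0.05. The standard error is the log2 change divided by the square root of F. The scripts were tested on simulated data. Alternatives were DESeq2 1.42.0, limma-voom, other scalings and filters, libraries left out, a replicate block and library enrichment as a covariate. Single values per library were compared with an exact permutation test, two-sided. Named peaks were those past the threshold, the one with the smallest p and the one with the most reads in each member, and those over a promoter window. The other peaks of Tbx2 and Tbx3 are described beyond this rule, as neighbours of a called peak, a choice made after their values were seen. Sequences and gene spans are from RefSeq (GRCm38.p6). Reads are not known to be independent molecules, so depth limits precision only as far as counting goes.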

Additional observations from a re-analysis of the deposited data

How the results depend on the processing

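Against 2 T-box peaks and 2440 of all peaks called, the fit over all regions called 0 and 0, scaling to reads between peaks 9 and 7309, no TMM factor 2 and 780, limma-voom 1 and 4297, the fit without both libraries numbered 1 called 1 and 325, and enrichment as a covariate 0 and 0. All regions without P14 replicate 1, added after seeing the data, gave 2 and 376. Leaving out 1 library gave 0 to 1 T-box peaks and 0 to 1476 peaks, with 0 of both without P14 replicate 1, where 5886 peaks had an unadjusted p under 0.05. The 2 T-box genes called on summed reads became 0 over all regions, with DESeq2, with limma-voom, without both libraries numbered 1 and with the covariate, 8 with scaling between peaks (where 33.8% of all symbols were called), 4 over all regions without P14 replicate 1 (18.0% of all symbols), and 0 to 1 with 1 library left out. The median T-box log2 change was 0.96 over all regions, where the median of all peaks was 0.73, 1.42 with scaling between peaks, 0.77 over all regions without P14 replicate 1, and 0.24 to 0.55 with 1 library left out, the highest without P1 replicate 3.

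The replicate numbers showed no visible pairing of the libraries (correlations of same-numbered libraries -0.04, -0.04 and 0.02), though weak pairing could go unseen. With them as a replicate block, 0 peaks, 0 T-box peaks and 0 T-box genes were called, and 6767 peaks had an unadjusted p under 0.05; the log2 changes of the middle peaks of Tbx2 and Tbx3 were 1.46 and 1.54, each with an adjusted p of 0.16.

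Some log2 changes turned sign. Over all regions and with scaling between peaks, all 25 T-box peaks were higher at P14. Tbx18 peak 1 became 0.50 and 0.98, Tbx21 peak 2 0.55 and 1.06, Tbx1 peak 1 0.51 and 0.90, and Tbx5 peak 4 0.64 and 1.12. Summed Tbx18 became 0.65 and 0.98. Over all regions without P14 replicate 1 the Tbx18 peak and sum became 0.0436 and 0.129, Tbx1 peak 1 0.78 and Tbx5 peak 4 0.23. Without a TMM factor Tbx1 peak 1 and Tbx5 peak 4 became 0.0046 and 0.0404. By limma-voom Tbx5 peak 1 became -0.0024. Without both libraries numbered 1 and with the covariate, Tbx3 peak 1 became -0.0758 and -0.0857, Tbx6 peak 1 -0.0502 and -0.183, and summed Tbx6 -0.0361 and -0.0895. In the same 2 fits Tbx1 peak 1 became 0.87 and 1.27. With the covariate Tbx4 peak 5 became -0.17. With 1 library left out, ranges crossed zero for Tbx3 peak 1 (-0.0356 to 0.602), Tbx5 peak 5 (-0.0665 to 0.204), Tbx18 peak 1 (-0.51 to 0.0842), Tbx21 peak 2 (-0.48 to 0.115), summed Tbx18 (-0.55 to 0.0931) and summed Tbx21 (-0.14 to 0.39). Among peaks not described one by one, ranges crossed zero for Tbx1 peak 1 (-0.41 to 0.42) and Tbx4 peak 4 (-0.0367 to 0.34). The same held for Tbx5 peak 1 (-0.23 to 0.23), Tbx5 peak 4 (-0.23 to 0.117) and Tbx21 peak 3 (-0.17 to 0.77). The causes were not tested. At 2 to 194 reads per library and peak, changes of moderate size can escape the test.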
